A study of Mus musculus with 7 samples.

Results

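The genes described here are 10 genes best known from astrocytes, out of the 38124 genes of the deposited count table. They comprise the metabolic enzymes *Aldoc*, *Acsbg1*, *Aldh1l1* and *Gpd1*, the glutamate transporter *Slc1a2*, the connexins *Gja1* and *Gjb6*, the water channel *Aqp4*, the filament protein *Gfap* and the lipid carrier *Apoe*. The members were chosen by symbol, with their counts in the same 7 libraries in view, as astrocyte genes of which some lay lower and some higher in the libraries titled Sox9. Their differences between the groups are therefore given as a description, without a test. The libraries were made from polyA RNA of cells sorted from the neocortex of mouse embryos heterozygous for *Tis21*-CreERT2, an allele in which a cassette for a tamoxifen-dependent Cre recombinase takes the place of an exon of *Tis21*, so that all embryos of both groups carried 1 disrupted *Tis21* allele and received tamoxifen. Cre acts in progenitors that express *Tis21*, chiefly those that generate basal progenitors (BPs). At E13.5 the neocortex was electroporated with a control construct, which turns on nuclear RFP after recombination (3 libraries, replicates 1, 2 and 4), or with a conditional Sox9 expression construct, which turns on RFP together with Sox9 (the Sox9 group, 4 libraries, replicates 1 to 4). High RFP cells were sorted by FACS at E15.5, 48 hr after electroporation, from pooled cortices of embryos of several mothers. The descriptions call the libraries biological replicates.

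Astrocytes arise in the neocortex after neurons, from radial glia that switch to gliogenesis around birth. Many proteins used to recognise astrocytes, among them the glutamate transporters and several metabolic enzymes, are already made by radial glia, whereas *Gfap* and *Aqp4* rise mainly in maturing astrocytes. In the adult brain, astrocytes take up glutamate and potassium, pass metabolites through connexin channels and feed folate, fatty acid and glycolytic pathways.

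The sequence before the transcription start was read for the members, as the region where factors of the SOX, NFI, RBPJ and STAT families are known to act on glial genes. RefSeq start sites (GRCm38.p6) were matched for 8 of the 10 members, with 11 start windows of 250 bases in all. Shown are the stretches of *Aldoc*, *Acsbg1* and *Gja1*, 3 of the 4 members whose levels lay below control in every library of the Sox9 group, as far as they lie outside the annotated gene. *Aldoc* is shown for chr11:78322823-78322967 (forward strand, 145 bases), *Acsbg1* for chr9:54661886-54662135 (reverse strand) and *Gja1* for chr10:56377050-56377299 (forward strand). They are written from 5′ to 3′, and capitals mark letters that match a searched motif on either strand.
Aldoc: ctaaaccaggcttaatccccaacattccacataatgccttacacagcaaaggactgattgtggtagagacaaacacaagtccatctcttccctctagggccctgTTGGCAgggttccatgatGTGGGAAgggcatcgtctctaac
Acsbg1: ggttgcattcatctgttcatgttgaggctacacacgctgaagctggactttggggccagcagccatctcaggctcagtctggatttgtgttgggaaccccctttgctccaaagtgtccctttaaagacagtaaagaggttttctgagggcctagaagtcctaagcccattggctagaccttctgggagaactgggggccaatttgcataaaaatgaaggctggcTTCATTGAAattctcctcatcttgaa
Gja1: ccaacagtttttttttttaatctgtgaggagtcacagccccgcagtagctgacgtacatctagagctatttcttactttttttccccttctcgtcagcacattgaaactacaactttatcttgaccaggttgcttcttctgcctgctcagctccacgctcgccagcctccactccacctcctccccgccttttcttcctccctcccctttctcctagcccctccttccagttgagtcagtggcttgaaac

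The stretch of *Aldoc* holds the letters TTGGCA, the core site of NFI factors, and GTGGGAA, the site of RBPJ, the factor through which Notch acts. That of *Acsbg1* holds the letters TTCNNNGAA, the site of STAT factors, from 26 to 18 bases before its start. The letters AACAAT, a core of the sites of SOX factors, were in 0 of the 11 windows of the members. TTGGCA was in 2 (*Aldoc* and *Apoe*), GTGGGAA in 1 (*Aldoc*), TTCNNNGAA in 2 (*Acsbg1* and a further start of *Aldoc* inside the gene) and TATAAA in 1 (*Apoe*). Among all 32851 windows of 250 bases in the RefSeq table, 9.42% held AACAAT, 12.3% TTGGCA, 5.42% GTGGGAA, 7.02% TTCNNNGAA and 12.4% TATAAA. No other motif was searched, both strands were read, and no 2 of the matches printed here overlap. Such a match describes letters and not a bound site, and a window without a match leaves sites elsewhere unexamined.

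Library totals were 10465562 to 12907778 counts in control, against 4429704 to 10520214 in the Sox9 group. *Sox9* itself had 362, 1026 and 668 counts in control, against 370, 435, 277 and 177 in the Sox9 group, with a log2 fold change of -0.68 (SE 0.25, edgeR adjusted p = 0.0493). Since the targeted mRNA was not higher there, "Sox9 group" stands for libraries that carry Sox9 in their titles. Of the marker genes, *Eomes* (Tbr2), a factor of intermediate progenitors, had 1195 counts in control and 246 in the Sox9 group (log2 fold change -2.25, SE 0.23, edgeR adjusted p = 4.87e-05). *Olig2*, a factor of the oligodendrocyte lineage, had 2 and 49. It passed the filter on low counts, given below, with the help of the Sox9 group, so its call is not used. The study had also picked *Olig2* from these libraries. As background, SOX9 is known to promote glial fates, among them the oligodendrocyte lineage. In CPM the groups overlapped for *Sox9*. Every library of the Sox9 group lay below all controls for *Eomes* and above all of them for *Olig2*, so that these genes separated the libraries by title. Of all genes tested, 16.4% lay lower and 22.9% higher in the Sox9 group without overlap. Counts of a bulk library cannot tell fewer cells of a type from less RNA per cell.

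In control cells the members spanned a wide range of levels, which were compared as TPM, counts divided by exonic length and scaled to the same sum in each library. *Aldoc*, the brain aldolase of glycolysis, stood far above the others at 220.2 ± 90.26 TPM (SD, n = 3), a level higher than that of 95.87% of the 18978 protein-coding genes with a control count. *Acsbg1*, which activates long-chain fatty acids, followed at 16.34 ± 6.962, and *Aldh1l1*, the folate dehydrogenase that labels astrocytes in reporter mice, at 11.67 ± 3.927. *Apoe*, the main lipid carrier of the brain, was at 9.564 ± 5.812 and *Gja1* (connexin 43) at 5.6 ± 2.557. *Gpd1*, the cytosolic glycerol 3-phosphate dehydrogenase, was at 2.229 ± 0.6339.

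Except for *Gja1*, the transporter and channel genes lay below the enzymes in control. *Slc1a2* (GLT-1) was at 0.9781 ± 0.08433, *Gjb6* (connexin 30) at 0.7495 ± 0.232, *Aqp4* at 0.2735 ± 0.2188 and *Gfap* at 0.07266 ± 0.07088 (SD, n = 3 each). The control values of *Aldoc* did not overlap with those of *Acsbg1*, nor those of *Gja1* with *Gpd1* or those of *Gpd1* with *Slc1a2*. The other 6 pairs of neighbours in this order overlapped and do not differ beyond their spread. The 2 genes that define mature astrocytes were thus the lowest, with 3 counts for *Gfap* and 18 for *Aqp4* in the 3 control libraries together. *Gfap* was lower than all but 5.364% of the protein-coding genes with a count. The name astrocyte genes thus describes what these genes are known for and not the sorted cells, in which the markers of mature astrocytes were near 0. The order depends on the length used. The deposited FPKM were scaled to the whole span of the gene for 91.76% of 6894 genes compared, introns included, and in FPKM *Apoe* ranked 2 and *Gja1* ranked 3, ahead of *Acsbg1* and *Aldh1l1*, whose spans were 15.81 and 25.19 times their exonic lengths.

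**Figure D1:**
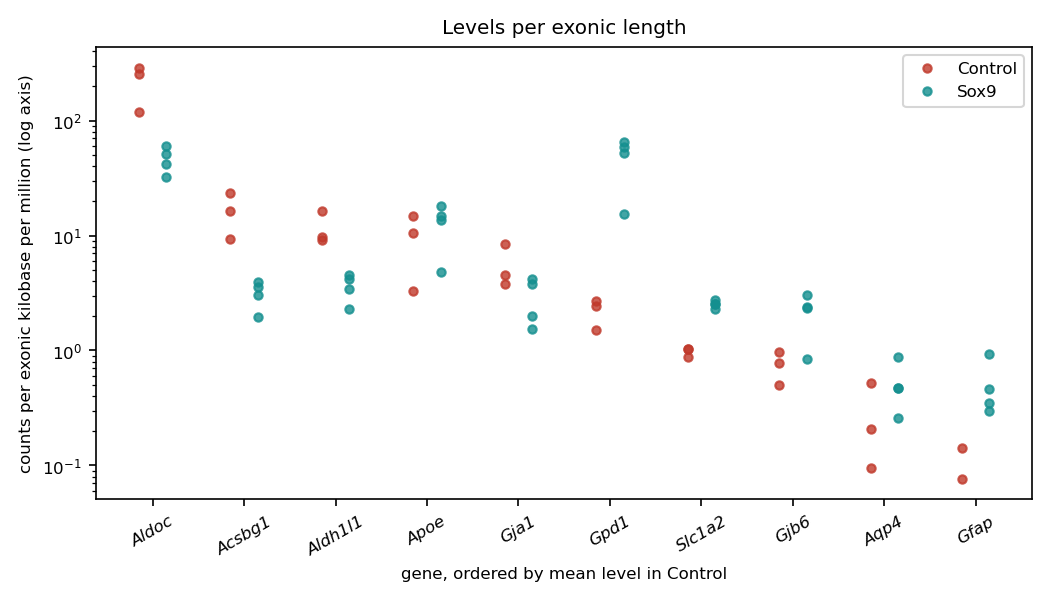
Levels of the 10 genes in each library, as TPM over exonic length on a log axis, with control in red and the Sox9 group in teal. *Aldoc* lies above the other genes in control (mean 220.2), while *Gpd1* (mean 47.68) and *Aldoc* (mean 46.25) overlap in the Sox9 group. Control replicate 2 had no *Gfap* count and has no point on the log axis.

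Differences between the groups were described in CPM, that is, counts scaled by depth and by edgeR's TMM factors, and as log2 fold changes from the fit across all 16522 genes that passed the filter on low counts. Of the 10 members, 8 passed this filter and *Gfap* and *Aqp4* did not. Of these 8, 4 had a log2 fold change above 0 and 4 below, with a median of -0.47 against -0.0031 for all genes tested. By the rule of an edgeR adjusted p under 0.01, 2 were called higher (*Gpd1* and *Slc1a2*) and 3 lower (*Aldoc*, *Acsbg1* and *Aldh1l1*), where 14.7% of all genes were called, 11.3% higher and 3.43% lower. In CPM, the groups did not overlap for 7 members, 3 with higher and 4 with lower values in the Sox9 group, against 39.3% of all genes tested, 22.9% higher and 16.4% lower. Because the members were chosen with these libraries in view, nothing is read from these counts. The filter keeps a gene that reaches the depth-scaled equivalent of 10 counts in at least 3 libraries of either group. Of all genes tested, 4543 did not reach this cutoff in all control libraries and passed with the help of the Sox9 group, which favours higher values there. They hold 1403 of the 1862 genes called higher, against 459 of the 11979 other genes. Of the members only *Gjb6* passed in this way.

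Of the enzymes, 3 lay lower in the Sox9 group (coordinates are those of mm10). *Aldoc* (ENSMUSG00000017390, chromosome 11, 78322968 to 78327781, forward strand) had 123.2, 304.6 and 261.3 CPM in control replicates 1, 2 and 4, and 46.97, 57.26, 36.33 and 29.99 CPM in Sox9 replicates 1 to 4. The lowest control value lay above the highest value of the other group. Means were 229.7 ± 94.72 (SD, n = 3) and 42.64 ± 12.01 (SD, n = 4), with a log2 fold change of -2.42 (SE 0.26), or 5.344 times higher in control. The 1272 genes within 0.5 log2 CPM of its mean level had a median log2 fold change of -0.25.

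*Acsbg1* (ENSMUSG00000032281, chromosome 9, 54604877 to 54661870, reverse strand) had 10.8, 27.11 and 18.61 CPM in control and 3.983, 2.079, 3.465 and 3.146 CPM in the Sox9 group. The groups did not overlap, and the log2 fold change of -2.58 (SE 0.32) was the lowest among the members. *Aldh1l1* (ENSMUSG00000030088, chromosome 6, 90486427 to 90600203, forward strand) had 13.29, 23.63 and 13.73 CPM against 5.357, 4.536, 5.478 and 2.936 CPM, again without overlap. Its log2 fold change was -1.86 (SE 0.28). For both, the 1872 genes at the same level had a median of -0.02. For all 3 enzymes control replicate 2 was the highest library and control replicate 1 the lowest, so that the spread in control ran in parallel across them.

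*Gpd1* (ENSMUSG00000023019, chromosome 15, 99717515 to 99725005, forward strand) lay in the opposite direction to the other enzymes. It had 15, 27 and 25 counts in control, or 1.434, 2.346 and 2.543 CPM. The libraries labelled Sox9 had 355, 594, 110 and 209 counts, or 48.76, 56.13, 12.3 and 43.83 CPM. All 4 lay above every control library, and replicate 3 was the lowest of them. Means were 2.108 ± 0.5919 (SD, n = 3) and 40.25 ± 19.31 CPM (SD, n = 4), with a log2 fold change of 4.25 (SE 0.46), or 18.97-fold. The 1925 genes at its level had a median of -0.14. The antisense gene *Gm16537* overlaps *Gpd1* over 6960 bases and had 13 counts in all libraries. Whether strand was used in counting is not given in the sources used here, so reads of such pairs cannot be told apart.

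The opposite differences of *Aldoc* and *Gpd1* altered the make-up of the 10 genes as a whole. *Aldoc* held 69.75% to 82.02% of their summed CPM in control and 26.34% to 39.54% in the Sox9 group, while *Gpd1* held 0.5889% to 0.8117% and 13.38% to 39.14%. The summed CPM of the members was 176.6 to 398.4 in control, against 91.89 to 146.1 in the Sox9 group. Per exonic length, *Gpd1* was first of the 10 in the Sox9 group at 47.68 ± 22.07 and *Aldoc* second at 46.25 ± 11.99 TPM (SD, n = 4), with overlapping values. *Apoe* followed at 12.87 ± 5.702, below *Aldoc* without overlap.

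**Figure D2:**
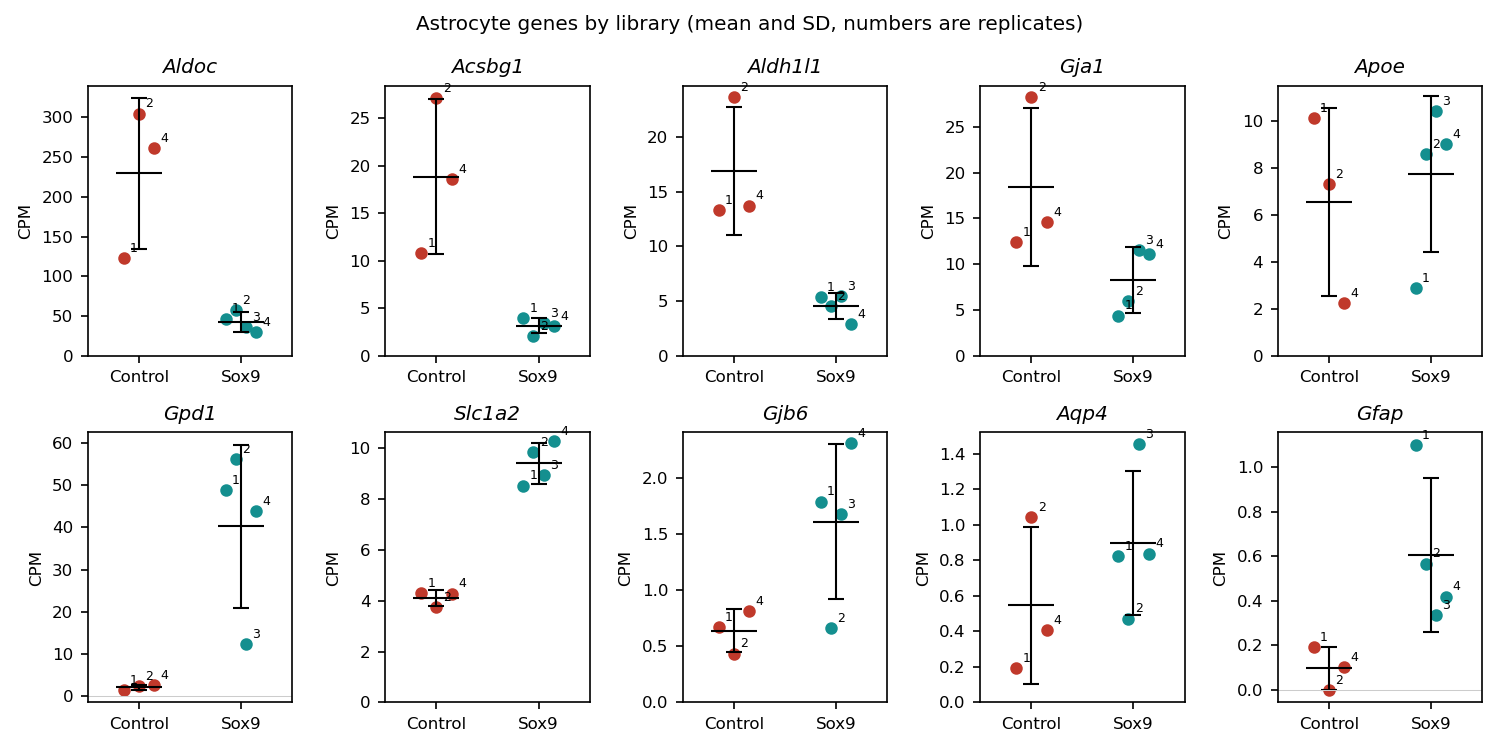
CPM of each of the 10 genes in the 3 control libraries (red) and the 4 libraries labelled Sox9 (teal), with numbers for replicates and bars for the mean and SD. *Aldoc*, *Acsbg1*, *Aldh1l1* and *Gja1* lie lower and *Gpd1*, *Slc1a2* and *Gfap* higher in the Sox9 group without overlap, and *Apoe*, *Gjb6* and *Aqp4* overlap; each panel has its own scale.

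*Slc1a2* (ENSMUSG00000005089, chromosome 2, 102658659 to 102790784, forward strand) encodes the transporter that clears most glutamate from adult synapses. Its libraries had 4.301, 3.736 and 4.272 CPM in control and 8.516, 9.827, 8.943 and 10.28 CPM in the Sox9 group. It was the steadiest member within the groups, with a coefficient of variation of 7.751% and 8.563%, and the groups lay apart by a log2 fold change of 1.19 (SE 0.26), or 2.282-fold. Genes at its level had a median of 0.09. *Gm13872*, an antisense gene under *Slc1a2*, had 11 counts in all, against 130 counts of *Slc1a2* in control and 295 in the Sox9 group.

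The 2 connexins, which form gap junctions between astrocytes, differed in how far their groups lay apart. *Gja1* (ENSMUSG00000050953, chromosome 10, 56377330 to 56402513, forward strand) had 12.43, 28.24 and 14.55 CPM in control and 4.395, 5.953, 11.51 and 11.11 CPM in the Sox9 group. The groups did not overlap, but Sox9 replicates 3 and 4 came close to the lowest control, and the log2 fold change was -1.18 (SE 0.34). *Gjb6* (ENSMUSG00000040055, chromosome 14, 57123303 to 57133611, reverse strand) had 7, 5 and 8 counts in control, against 13, 7, 15 and 11 in the other group. In CPM these were 0.669, 0.4345 and 0.8138 against 1.786, 0.6615, 1.677 and 2.307, and Sox9 replicate 2 lay within the control range. The log2 fold change of *Gjb6* was 1.27 (SE 0.55), below the median of 1.501 for genes at its low level. With cyclic loess scaling, which fits a curve to each library's level, it became -0.30, so no direction is given for *Gjb6*.

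*Gfap* (ENSMUSG00000020932, chromosome 11, 102887336 to 102900912, reverse strand) had 2, 0 and 1 counts in control, against 8, 6, 3 and 2 in the Sox9 group. In CPM these were 0.1912, 0 and 0.1017 against 1.099, 0.567, 0.3354 and 0.4194, without overlap. The ratio of the summed counts, scaled to depth, was 6.378 with an exact 95% interval of 1.878 to 33.65, which covers counting error only. It became 12.84 without control replicate 1 (interval 2.041 to 533.5) and 4.07 without control replicate 2 (interval 1.198 to 21.48). A fit without the filter gave a log2 fold change of 2.43 (SE 1.04), and genes at this level had a median of 1.36. *Gfap* lies wholly under *Gm26668*, a lincRNA gene on the opposite strand that had 111 counts in all libraries against 22 for *Gfap*.

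*Aqp4* (ENSMUSG00000024411, chromosome 18, 15389496 to 15410982, reverse strand), the water channel of astrocyte endfeet, had 2, 12 and 4 counts in control, against 6, 5, 13 and 4 in the Sox9 group. The counts of the groups overlapped across most of their range. Their ratio at equal depth was 1.567, with an exact 95% interval of 0.8365 to 3.007, and the fit without the filter gave 0.58 (SE 0.69), below the median of 1.37 for its level. Control replicate 2 held 12 of the 18 control counts, and without it the ratio was 2.999 with an interval of 1.218 to 8.858, whereas without any other library it was 1.171 to 1.936. For these low genes the background is given by the 1372 olfactory, vomeronasal, taste and trace amine receptor genes, which neocortical cells do not use and which, pooled as 1 long gene, had 0.07058 to 0.09737 TPM in control and 0.235 to 0.3622 in the Sox9 group, a ratio of 3.443. *Gfap* was at 0.1416, 0 and 0.07637 TPM in control and at 0.928, 0.4589, 0.2973 and 0.3481 TPM in the Sox9 group, of which 1 control library and Sox9 replicates 3 and 4 lay within the range of the receptor genes. *Aqp4* lay within it in control replicate 1 (0.09583 TPM) and Sox9 replicate 2 (0.2588 TPM) and above it in the other 5 libraries. The background was higher in the same libraries as *Gfap*, and its part in the values of *Gfap*, *Aqp4* and *Gjb6* was not tested.

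*Apoe* (ENSMUSG00000002985, chromosome 7, 19696109 to 19699188, reverse strand) varied within the groups more than between them. It had 10.13, 7.299 and 2.238 CPM in control and 2.884, 8.599, 10.4 and 9.017 CPM in the Sox9 group. The highest library was 4.527 times the lowest in control and 3.604 times in the other group, and control replicate 4 and Sox9 replicate 1 were the low ones. The log2 fold change was 0.23 (SE 0.45) and became -0.15 without control replicate 4. *Apoe* is also made by microglia, whose markers summed to 19.5, 58.3 and 42.2 CPM in control and to 100, 47.5, 42.4 and 23.9 CPM in the Sox9 group. Their part in the values of *Apoe* was not tested.

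**Figure D3:**
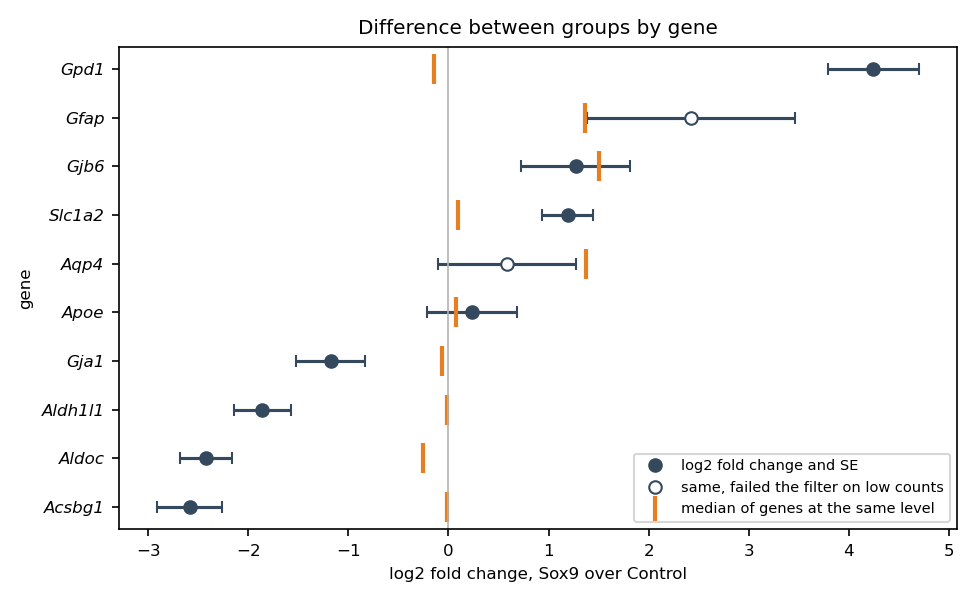
Log2 fold change of each gene, libraries labelled Sox9 over control, with its standard error (filled, from the fit with the filter; open, from the fit without it) and, as orange bars, the median of genes at the same level. *Gpd1* (4.25) and *Acsbg1* (-2.58) are the ends of the range, and the values of *Gjb6* and *Aqp4* lie below the bar of their level.

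Genes of the wider astrocyte programme, which the choice of members did not use, were tested next. Of 121 further astrocyte genes, 101 passed the filter, and 7 rose and 18 fell (edgeR's quasi-likelihood test, two-sided, adjusted p under 0.01), or 6.93% and 17.8% of those tested against 11.3% and 3.43% of all genes. The list's median log2 fold change was -0.33, against -0.0031 for all genes tested. These genes, too, were listed with earlier results of the data known, and the count is a description. All 7 that rose averaged under 2 CPM in control. Of these, 6 (all but *Slc6a11*) did not reach the cutoff in all control libraries and passed with the help of the Sox9 group, as 18 of the 101 tested genes did. Of the other 83, 1 rose, so the number of rises follows in part from the filter and supports nothing. The medians of tested genes at the level of these 7, 0.41 to 1.60, carry the same condition. The receptor genes named above were 3.443 times higher, and the part of this background in the rises was not tested. All 18 that fell reached the cutoff in at least 3 libraries of the Sox9 group. Of all 121 genes, 51 had a higher mean CPM in the Sox9 group. Without any 1 library, 2 to 6 rose and 8 to 20 fell, with the fewest in both directions without control replicate 2. Under cyclic loess 0 rose and 12 fell (limma, 9 and 38 at an unadjusted p under 0.05), while DESeq2 called 8 and 22.

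Among the genes for secreted, receptor and structural proteins, 3 of 41 rose and 11 fell. *Tnc* (tenascin C, an extracellular matrix protein of radial glia) went from 89.39 ± 44.4 to 13.41 ± 2.564 CPM, a log2 fold change of -2.75 (SE 0.29, edgeR adjusted p = 5.07e-05). *Mfge8*, a secreted bridge for phagocytosis, had -2.36 (SE 0.27, edgeR adjusted p = 9.29e-05) and the metallothionein *Mt3* -2.12 (SE 0.30, edgeR adjusted p = 0.000326). *Vim*, the filament protein of radial glia, fell from 115.9 ± 23.27 to 51.21 ± 9.014 CPM (-1.17, SE 0.16, edgeR adjusted p = 0.000334). The acyl-CoA binding protein gene *Dbi* fell by 1.36 (SE 0.19, edgeR adjusted p = 0.000311) and the endothelin receptor gene *Ednrb* by 1.42 on the log2 scale (SE 0.27, edgeR adjusted p = 0.00197). For these 6 genes every control library lay above the whole Sox9 group. *Ednrb* lost the call without control replicate 2 and under cyclic loess, and the other 5 were called in 14 of 17 alternatives, all but the fits of FPKM. *S100b*, a calcium-binding protein, had 1, 1 and 6 counts in control, against 24, 15, 10 and 7 in the Sox9 group (edgeR adjusted p = 0.00966). Of the 7 fits without 1 library, *S100b* was called only in that without control replicate 4, with edgeR adjusted p from 0.012 to 0.0457 in the others and 0.412 under cyclic loess (limma). *Timp4*, a protease inhibitor, had 0, 2 and 1 counts against 10, 20, 16 and 9 (edgeR adjusted p = 0.00116), and was called in 11 of 16 alternatives but not under cyclic loess (limma adjusted p = 0.115). *Tril*, a Toll-like receptor partner, rose by 1.78 (SE 0.44, edgeR adjusted p = 0.00808). It was called without Sox9 replicate 3 and lost the call without any of the other 6 libraries (edgeR adjusted p from 0.0139 to 0.0339) and under cyclic loess (limma adjusted p = 0.289). *Clu*, the gene for clusterin, went from 27.29 ± 3.769 to 18.68 ± 6.624 CPM and did not pass the test (edgeR adjusted p = 0.103). *S100b* had also been picked by the study from these libraries. *S100b*, *Timp4* and *Tril* passed the filter with the help of the Sox9 group, so nothing is read from their calls.

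Among channels and transporters, 3 of 28 rose and 3 fell, with a median of -0.10. *Slc1a3* (GLAST), the glutamate transporter of radial glia and young astrocytes, fell from 191.7 ± 53.08 (SD, n = 3) to 76.25 ± 11.53 CPM (SD, n = 4), a log2 fold change of -1.33 (SE 0.17, edgeR adjusted p = 0.000213), while its relative *Slc1a2* lay higher. The inward rectifier *Kcnj16* had 2, 1 and 4 counts in control, against 22, 23, 18 and 12 in the Sox9 group (edgeR adjusted p = 0.00117). The GABA transporter *Slc6a11* (log2 fold change 2.06, SE 0.45, edgeR adjusted p = 0.00446) and the cation channel *Trpm3* (1.88, SE 0.41, edgeR adjusted p = 0.00419) also rose. Of the alternatives that tested them, *Kcnj16* was called in 11 of 14, *Trpm3* in 7 of 14 and *Slc6a11* in 5 of 15. Among enzymes, 1 of 32 rose and 4 fell, with a median of -0.27. *Phgdh*, the first enzyme of serine synthesis from glycolysis, went from 51.66 ± 16.48 to 19.29 ± 1.074 CPM (-1.42, SE 0.20, edgeR adjusted p = 0.000376). *Hsd11b1*, which activates glucocorticoids, rose by 2.30 (SE 0.50, edgeR adjusted p = 0.00428) and was called in 6 of 14 alternatives. *Kcnj16*, *Trpm3* and *Hsd11b1* passed the filter with the help of the Sox9 group, so nothing is read from their calls.

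The closest relatives of the members show how far a difference extended to genes of the same function. Of 87 relatives, 54 passed the filter, 6 rose and 3 fell, or 16.7% against 14.7% of all genes, with a median of 0.10. All 6 that rose were among the 17 that passed the filter with the help of the Sox9 group, so nothing is read from the rises. Without control replicate 2, 1 fell. *Aldoa*, the widely used aldolase, had 518.4 ± 73.2 CPM in control and 398.4 ± 39.81 in the Sox9 group, a log2 fold change of -0.38 (SE 0.12) that was not called (edgeR adjusted p = 0.0299) beside the -2.42 of *Aldoc*. Of the 2 aldolases tested besides *Aldoc*, 0 were called by edgeR, DESeq2 or limma on loess-scaled values, 1 had an unadjusted p under 0.05 with edgeR, and without the filter *Aldoa* was called. The mitochondrial enzymes related to *Aldh1l1* and *Gpd1* were close to control, with -0.38 (SE 0.14, edgeR adjusted p = 0.0494) for *Aldh1l2* and -0.30 (SE 0.15, edgeR adjusted p = 0.123) for *Gpd2*. *Gpd1l*, the cytosolic paralog of *Gpd1*, had 36.93 ± 7.962 and 47.19 ± 2.202 CPM and a log2 fold change of 0.36 (SE 0.16, edgeR adjusted p = 0.104) beside the 4.25 of *Gpd1*.

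Of 11 further enzymes of one-carbon metabolism, 3 fell, or 27.3% against 3.43% of all genes. Among them were *Tyms* (-1.06, SE 0.15, edgeR adjusted p = 0.000397) and *Mthfd1* (-0.68, SE 0.13, edgeR adjusted p = 0.00208). Without control replicate 2, or under cyclic loess (limma), 1 of the 11 was called lower. *Tyms* was called in 14 of 17 alternatives and *Mthfd1* in 9. *Tyms* makes thymidylate for DNA synthesis and is high in dividing cells. *Acsbg2*, the paralog of *Acsbg1* known from testis, rose by 2.78 (SE 0.51, edgeR adjusted p = 0.00178), from 0.5406 ± 0.264 to 3.796 ± 1.216 CPM. The muscle filament *Des* rose by 3.22 (SE 0.57, edgeR adjusted p = 0.00138), the glutamate transporter *Slc1a7* by 2.58 (SE 0.65, edgeR adjusted p = 0.00906) and the apolipoprotein *Apol6* by 2.48 (SE 0.41, edgeR adjusted p = 0.000999). *Slc1a7* was called in 3 of 11 alternatives, and *Acsbg2*, *Des* and *Apol6* in 11 or 12 of 16. All of these rises passed the filter with the help of the Sox9 group, so nothing is read from them.

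Among the other connexins and pannexins, 2 of 8 rose, but 6 of these 8, including both that rose, passed the filter with the help of the Sox9 group. *Gjb1* (connexin 32), known from oligodendrocytes, had no count in the 3 control libraries and 49, 25, 19 and 6 counts in the Sox9 group, at least 10.97-fold higher than a floor of 3 counts per control library, or at least 6.738-fold without Sox9 replicate 1 (edgeR adjusted p = 0.000711). *Gjb2* (connexin 26) and *Gja4* (connexin 37) failed the filter, with 2 and 21 control counts and with 1 and 15 in the Sox9 group. *Aqp1*, the aquaporin of choroid plexus, failed it with 2 and 3 counts.

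**Figure D4:**
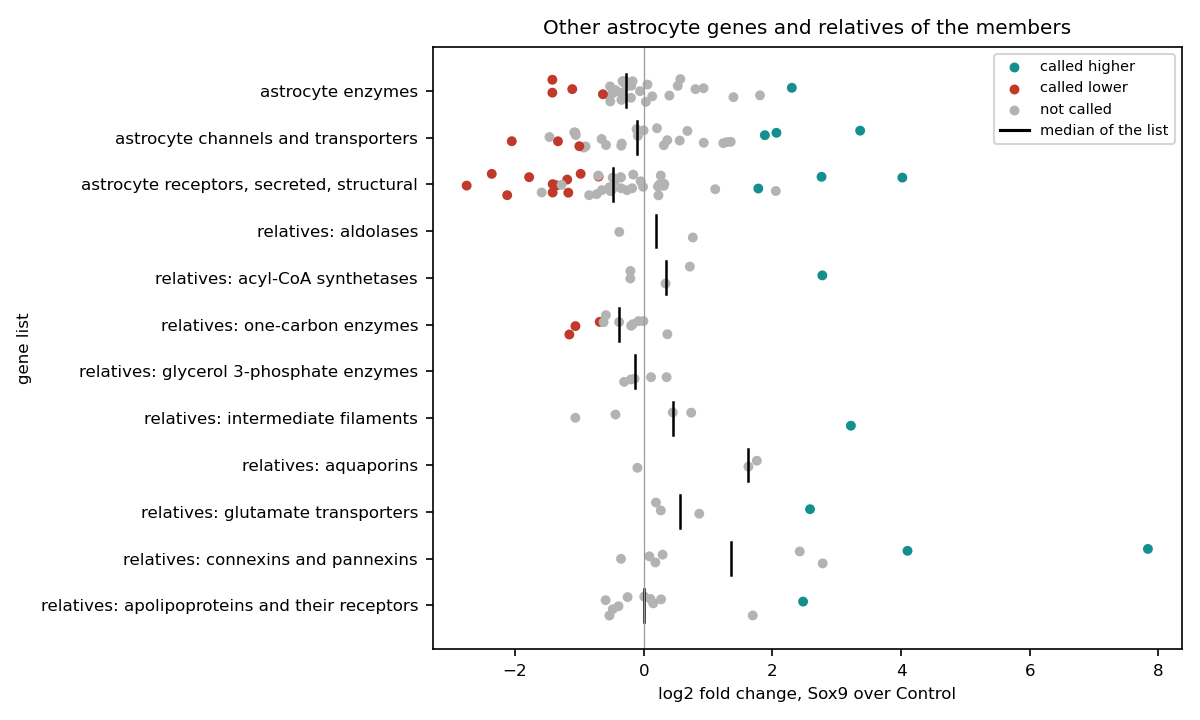
Log2 fold changes (libraries labelled Sox9 over control) of the genes of the wider astrocyte list, in 3 groups, and of the relatives of the members, in 9 groups, with black bars for the median of each list. Teal marks genes called higher, red those called lower and grey those not called; receptors, secreted and structural proteins hold 11 of the 18 astrocyte genes called lower. The point farthest to the right is *Gjb1*, whose fitted value against a control without counts is no measured size.

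Markers of other cell types moved with the groups and are given beside the members, in summed CPM. Of 10 lists, 7 did not overlap between the groups, 5 of them higher and 2 lower in the Sox9 group (exact permutation test over 35 arrangements, two-sided, with 0.0286 as the smallest p it can give). Radial glia markers were at 286 to 516 in control and 198 to 257 in the Sox9 group (exact p = 0.0286, adjusted 0.0476). Of their genes, 4 of 10 were called lower by edgeR, against 3.43% of all genes, and 0 of 10 had a log2 fold change above 0. Control replicate 2 was the highest library in these markers, as it was in *Aldoc*, *Acsbg1*, *Aldh1l1* and *Gja1*. This was not particular to radial glia. The same library was also the highest in intermediate progenitor markers. Among the controls it was the highest in microglia, endothelial, mural and meningeal, erythroid, and choroid plexus and ependyma markers. Intermediate progenitor markers were at 728 to 815 and 509 to 640 (exact p = 0.0286, adjusted 0.0476). Of their genes, 2 of 8 were called lower by edgeR, against 3.43% of all genes, and 1 under cyclic loess by limma. The ratio of the group means was 0.534 for radial glia and 0.736 for intermediate progenitors.

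Oligodendrocyte precursor markers summed to 1.72 to 2.75 in control and 15.5 to 34.3 in the Sox9 group (8 of 9 markers with a higher mean, *Nkx2-2* at 0 in control). Oligodendrocyte markers were at 26.5 to 32.7 and 45.8 to 60.2 (8 of 10 with a higher mean, *Opalin* and *Cldn11* at 0 in control). Endothelial markers were at 34.8 to 53 and 70.5 to 96.5 (11 of 12 with a higher mean, *Ly6c1* at 0 in control), and choroid plexus and ependyma markers at 2.2 to 2.52 and 11.2 to 17.4 (8 of 11 with a higher mean). Each of these 4 lists had an exact p of 0.0286, adjusted 0.0476. Mural and meningeal markers did not overlap either, at 12.8 to 15.2 and 24.9 to 48.5 (13 of 14 with a higher mean, exact p = 0.0571, adjusted 0.0816).

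The sums and these counts cover every listed marker in the table, 21022 of all 38124 genes having a higher mean in the Sox9 group. Calls of single markers in the 5 higher lists are not used. All 6 tested precursor markers, 5 of 5 of choroid plexus and ependyma, 9 of 10 mural and meningeal, 6 of 10 endothelial and 3 of 7 oligodendrocyte markers passed the filter with the help of the Sox9 group. Of all tested markers of these lists edgeR called 5, 3, 3, 4 and 2 higher, in that order, and limma after cyclic loess 1, 0, 0, 1 and 1, with 2 choroid plexus and 3 mural markers higher at an unadjusted p under 0.05.

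Against the 3.443 times higher receptor genes, the ratio of the group means was 1.77 for oligodendrocyte, 1.83 for endothelial and 2.72 for mural and meningeal markers, and 6.49 for choroid plexus and ependyma and 9.08 for oligodendrocyte precursor markers. The part of that background in these sums was not tested.

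The remaining lists overlapped between the groups. Neuron markers were at 14693 to 18451 and 13647 to 15882 (0 of 12 called by edgeR, 4 at an unadjusted p under 0.05 and 1 called by DESeq2, exact permutation p = 0.2). Microglia markers were at 19.5 to 58.3 and 23.9 to 100 (exact p = 0.657) and erythroid markers at 2.96 to 25.2 and 16.8 to 96.7 (exact p = 0.2). EdgeR called 1 of 12 microglia and 1 of 6 erythroid markers higher, against 11.3% of all genes. Both passed the filter with the help of the Sox9 group, as 6 of the 12 microglia and all 6 tested erythroid markers did. These 2 calls are therefore not used. Except for *Nkx2-2*, *Opalin*, *Cldn11* and *Ly6c1*, every marker found in the count table had a count in control. *Cspg4* stands in both the oligodendrocyte precursor and the mural lists, and *Slc2a1* and *Aqp1* stand in an endothelial or choroid plexus list as well as in a list of astrocyte genes or relatives. *Aldoc*, *Acsbg1*, *Aldh1l1*, *Gja1* and *Slc1a3* are also known from radial glia, and *Gpd1* from oligodendrocytes. The lower radial glia sums and the higher oligodendrocyte sums went the same way as these genes. *Slc1a2*, also a glutamate transporter, went the other way to the radial glia sums (log2 fold change 1.19), and *Apoe* overlapped between the groups. Of the oligodendrocyte markers, *Mbp* (log2 fold change -0.52) and *Mog* (-0.0026) did not go with their sum. The part of these cell types in the differences of the members was not tested.

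**Figure D5:**
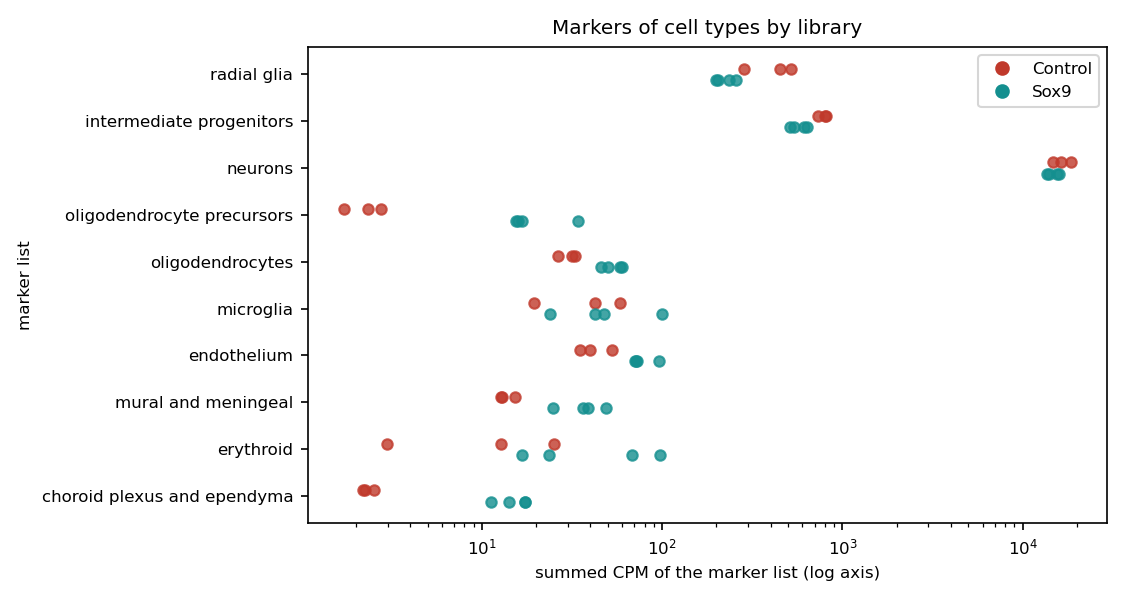
Summed CPM of the markers of 10 cell types in each control library (red) and each library of the Sox9 group (teal), on a log axis. Radial glia and intermediate progenitor sums lie lower and 5 further sums higher in the Sox9 group without overlap, with oligodendrocyte precursor markers going from at most 2.75 to at least 15.5.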

How the data were processed

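High RFP cells of 7 libraries (3 Control, 4 labelled Sox9) were analysed. Reads were demultiplexed with bcl2fastq 2.17.1.14 and aligned to mm10 (GRCm38) with STAR 2.5.2b per the submitters' processing notes. The authors deposited 1 table of raw counts and 1 of FPKM values, both by Ensembl gene. The counting program and its use of strand are not given in the sources used here. cDNA was amplified without molecular identifiers, so intervals and floors cover counting error only. Depth was 4429704 to 12907778 counts per library.

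Groups and replicate numbers followed the titles, which give controls the numbers 1, 2 and 4 where the descriptions have 1 to 3. No 2 replicates agreed within sampling noise (chi-square per degree of freedom 7.535 to 20.68). Deviations of same-numbered libraries correlated by -0.036, 0.118 and -0.005, and the fit had no block.

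Symbols and coordinates came from GENCODE M21 of GRCm38 (36345 genes matched) and promoters from RefSeq (GRCm38.p6). For counts, edgeR 4.0.16 in R 4.3.3 was used (TMM, filterByExpr defaults, two-sided quasi-likelihood test, Benjamini-Hochberg over 16522 genes, threshold 0.01). Low genes were fitted without the filter, as said where used. Marker sums were compared by exact permutation, adjusted over 10 lists. The edgeR p-values weigh a difference between the groups against the spread between these libraries. The permutation p-values rank it among the 35 arrangements of the libraries. The steps were tested on simulated data. Alternatives were DESeq2 1.42.0, DESeq2's size factors, cyclic loess with limma 3.58.1, a fit of all genes with a count, a minimum of 10 counts in each library, a threshold of 0.05, FPKM plus 0.1 or 1 on the log2 scale with a minimum mean FPKM of 0.05 or none, a replicate block, and leaving out each library. Summaries used Python 3.11.15, pandas 2.3.3, numpy 2.4.6, scipy 1.17.1 and matplotlib 3.10.9.

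The text names all members, *Sox9*, up to 8 genes of the wider and relatives lists per direction with the smallest p among those called, and 11 close relatives. Some genes covered by this rule are not reported here. Members and lists were chosen with earlier results of these data known. Genes of the cell type lists at 0 in control, *Gm13872*, *Gm16537*, *Gm26668*, *Cspg4*, *Slc2a1*, *Eomes* and *Olig2* were named after their values were seen.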

Additional observations from a re-analysis of the deposited data

Results flagged for a closer look

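In 52 groups of 4 values screened among the genes and marker sums named here, 6 held a library labelled Sox9 whose gap to its nearest neighbour passed Dixon's 95% critical share of the range, where chance gives about 1 in 20. *S100b* stood at 3.296 CPM in Sox9 replicate 1, against 1.118 to 1.468 in the other 3. The summed markers of oligodendrocyte precursors were likewise highest in Sox9 replicate 1, at 34.34 CPM against 15.5 to 16.78. *Gjb2* had 0.1373 CPM in that library, which was its only count in the group. *Des* was low in Sox9 replicate 2 at 1.984 CPM, against 3.775 to 4.024, and *Acsbg2* was low in the same library at 1.984 CPM, against 4.194 to 4.533. The summed endothelial markers were high in Sox9 replicate 3 at 96.47 CPM, against 70.46 to 72.19. No value of the 10 members was set apart by this measure.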

How the results depend on the processing

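Directions of the members held in nearly all fits of the counts. *Gjb6* turned to -0.30 under cyclic loess and *Apoe* to -0.15 without control replicate 4 (up to 0.67 without control replicate 1), while of the other values 118 moved by less than the replicate spread and 18 by more, without turning. Over all genes, 1862 were called higher and 567 lower. This became 363 and 284 under cyclic loess, 638 and 204 with at least 10 counts in every library, 3616 and 1787 at an adjusted p under 0.05, 85 and 9 with FPKM plus 0.1, 40 and 4 without its filter, and 0 and 0 with FPKM plus 1 (limma, 4685 and 675 at an unadjusted p under 0.05). DESeq2 called 1272 lower, and 1452 were lower without the filter, where the median of all genes was 0.51 on the log2 scale. Of the wider astrocyte list, 7 rose and 18 fell. No filter gave 12 and 30, at least 10 counts 1 and 8, an adjusted p under 0.05 11 and 29, cyclic loess 0 rises, and the 3 fits of FPKM 0 and 0 (11 and 19 at an unadjusted p under 0.05 with FPKM plus 0.1). Of the relatives, 6 rose and 3 fell. No filter gave 11 and 8, at least 10 counts 0 and 1, an adjusted p under 0.05 12 and 8, cyclic loess 0 and 1, and FPKM 0 and 0 (17 and 4 unadjusted). The numbers do not pair the libraries. With a replicate block by title, 400 rose and 218 fell over all genes, 0 and 9 in the wider list and 3 and 1 among the relatives. Among cell type markers it called 1 higher of precursors, against 5, 1 of endothelium, against 4, 1 each of the mural and choroid plexus lists, against 3, and 1 lower of intermediate progenitors, against 2. It left *Timp4* at an edgeR adjusted p of 0.0135 and *Mthfd1* at 0.0119, and 1 of 11 one-carbon enzymes called lower, against 3. A block by the numbers of the descriptions, chosen after seeing the data, gave 1034 and 353 over all genes and 2 rises in the wider list. Leaving out 1 library gave 827 to 1590 higher and 208 to 475 lower over all genes, 2 to 6 and 8 to 20 in the wider list, and 5 to 7 and 1 to 4 among the relatives, with the lowest counts without control replicate 2. The wider list's rises moved by over 1.5 times without any 1 library except Sox9 replicate 2, and its falls without any 1 except control replicate 1 and Sox9 replicate 2. Over all genes, the higher count did so without control replicates 1 or 2 or Sox9 replicates 1 or 3, and the lower count without any 1 except control replicate 1. Of the other named genes, 353 values stayed on the same side of the threshold, 133 lost the call and 3 gained it, all with the same sign. Depth limits the precision of *Gfap*, *Aqp4* and *Gjb6*, each with at most 20 counts over the 3 control libraries. Without each library in turn, chosen after seeing the data, the pooled ratio was 4.07 to 12.84 for *Gfap*, 1.171 to 2.999 for *Aqp4* and 1.971 to 2.954 for *Gjb6*.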
